A study of Mus musculus with 5 samples.

Results

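The 10 genes described here are members of the Bcl2 family, chosen by name from the 15287 genes of the deposited table, and all 10 were found in it. They are the anti-apoptotic genes Bcl2, Mcl1, Bcl2l1 (BCL-xL) and Bcl2a1b (A1), the effectors Bax and Bak1, and the BH3-only genes Bcl2l11 (BIM), Bid, Bbc3 (PUMA) and Pmaip1 (NOXA). Their levels were followed through 5 sorted bone marrow libraries and through lineage classes built from the cells of 3 of them.

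Proteins of the BCL2 family decide whether the outer mitochondrial membrane is opened during apoptosis. BAX and BAK form the pores that release cytochrome c. BCL2, MCL1, BCL-xL and A1 hold them and their activators in check, and BH3-only proteins either bind these guardians or activate the effectors directly. In the blood system, MCL1 is known to be required by stem cells, BCL-xL by late erythroid cells and platelets, and BCL2 by mature lymphocytes.

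All cells came from the bone marrow of untreated Fgd5CreERT2/+ Rosa26Tomato/+ mice of 20 weeks. In these mice 1 Fgd5 allele carries ZsGreen-2A-CreERT2, so every library, the controls included, came from cells with this allele, and Tomato lies in Rosa26 behind a floxed stop. The 3 Lin-kit+ libraries (lineage-negative, CD45.2+ and c-kit+ progenitors, here a, b and c) held 1339, 4095 and 6147 cells. The Fgd5+ library (Lin-kit+ and ZsGreen+) held 793 cells and the HSC-Fgd5+ library (ZsGreen+ with the additional Sca1+CD150+CD48- phenotype of hematopoietic stem cells, HSCs) held 519. Both are called reporter-positive. Deposited cell names carry only a numeric suffix. Which suffix is which population was read from the numbers of cells, and the titles and gates of the 2 reporter-positive samples contradict each other in the labels, so every difference between these populations rests on that match.

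Libraries held 2166655 to 36080242 UMIs (unique molecular identifiers, each counting 1 captured RNA molecule), with a median of 3721 to 6567 per cell. Levels are given as CPM, the UMIs of a gene per 1000000 UMIs of a library or class. Of the barcodes, 62 sequences occurred in more than 1 library and covered 125 of 12893 cells. The summed level of 10 HSC marker genes was 71.3 to 74.9 CPM in the Lin-kit+ libraries, 1971 CPM in Fgd5+ and 2137 CPM in HSC-Fgd5+. In contrast, 12 late neutrophil markers summed to 59439 to 70462 CPM in the Lin-kit+ libraries, 1226 CPM in Fgd5+ and 6.92 CPM in HSC-Fgd5+. The labels do not say whether libraries came from separate mice, so p-values measure the spread between libraries, which may be loadings of 1 suspension.

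The first comparison set the reporter-positive libraries against the Lin-kit+ libraries, to ask how survival genes differ between cells marked by Fgd5 and progenitors at large. Bid, Bax, Bak1 and Pmaip1 were lower in the reporter-positive libraries, and Bcl2l1 and Bbc3 were higher. The other 4 members were not called. All 10 members passed the filter on low counts, Pmaip1 through the Lin-kit+ libraries alone. They were tested together with the other genes by edgeR's quasi-likelihood test at an adjusted p of 0.05. Against the 2 higher and 4 lower members stand 32.7% and 30.4% of all 11991 tested genes, 63.1% in all, so the number of members called is close to what the libraries show at large. In sums over a library, fewer cells of a type and less RNA per cell cannot be told apart.

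**Figure D1:**
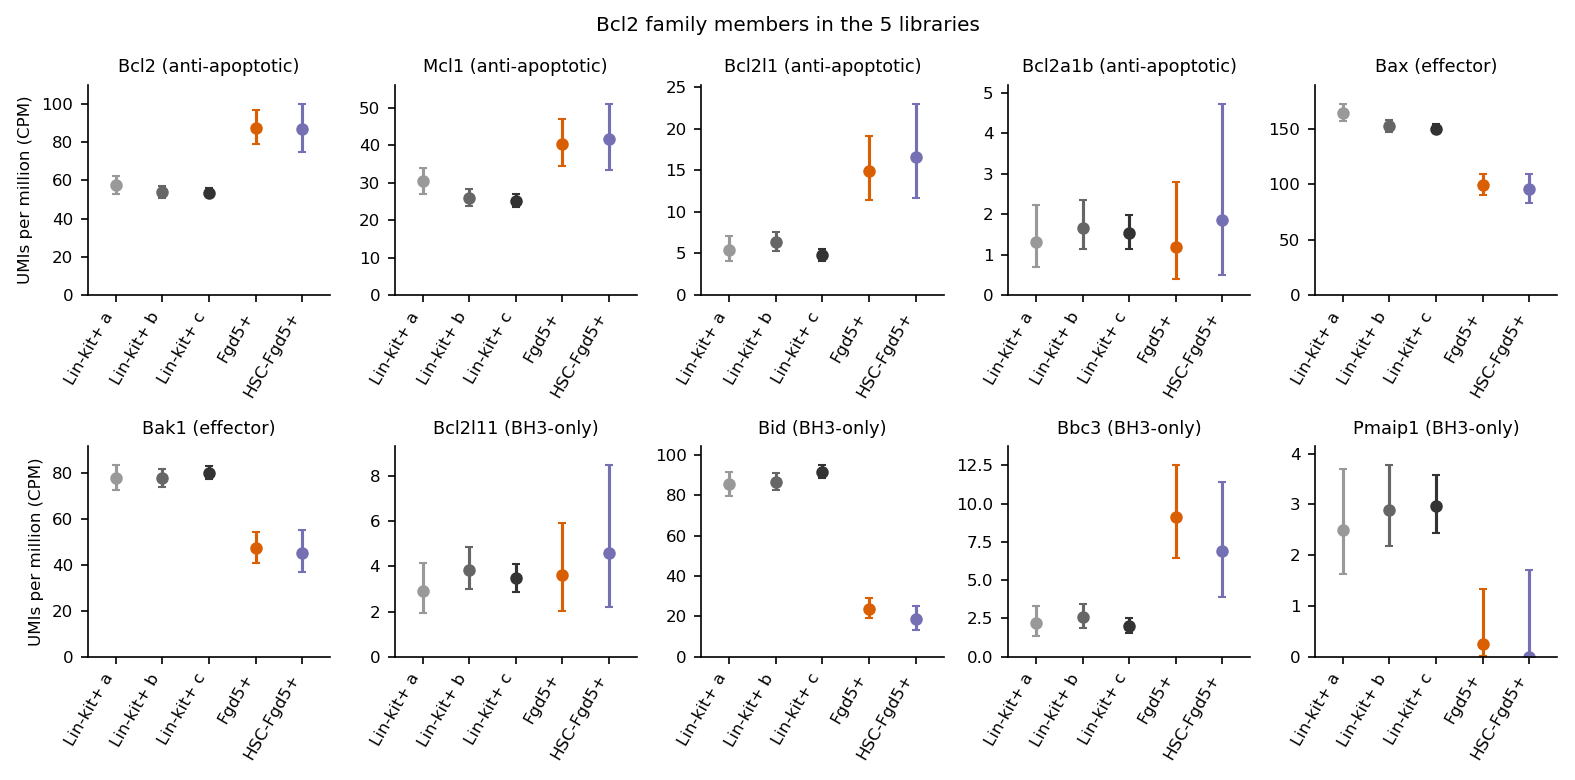
Level of each member in the 5 libraries, in CPM on a linear axis that starts at 0. Points are libraries and bars are exact 95% Poisson intervals, which cover counting error only. For Bax, Bak1 and Bid both reporter-positive libraries lie below all 3 Lin-kit+ libraries, and for Bcl2l1 and Bbc3 they lie above.

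Of the anti-apoptotic genes, Bcl2 was measured at 57.6, 53.8 and 53.6 CPM in Lin-kit+ a, b and c, 87.6 CPM in Fgd5+ and 86.8 CPM in HSC-Fgd5+. Mcl1, a short-lived guardian, followed with 30.3, 26.0 and 25.2 CPM in Lin-kit+ and 40.3 and 41.5 CPM in the reporter-positive libraries. The CPM of both genes was higher in each reporter-positive library than in any Lin-kit+ library, yet neither was called once the libraries were scaled by TMM. This scaling, which sets most genes to no change, gave log2 fold changes of 0.13 ± 0.08 (SE, edgeR adjusted p = 0.206) for Bcl2 and 0.06 ± 0.12 (edgeR adjusted p = 0.694) for Mcl1. With library totals the median gene itself moved from 0.07 to 0.60, and Bcl2 (0.67, edgeR adjusted p = 3.35e-04) and Mcl1 (0.60, edgeR adjusted p = 0.00341) were then called higher, whereas the sign of Mcl1 turned with DESeq2 (-0.029) and without the filter on low counts (-0.0075). With library totals 6586 genes were called higher and 1993 lower, against 3921 and 3646 with TMM.

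Bcl2l1 encodes BCL-xL, the guardian with a known role in erythroid cells and platelets. It was at 5.40, 6.37 and 4.79 CPM in Lin-kit+ and at 14.9 CPM in Fgd5+ and 16.6 CPM in HSC-Fgd5+. The groups did not overlap, and the log2 fold change was 0.97 ± 0.19 (SE, edgeR adjusted p = 0.00367). Bcl2a1b was sparse everywhere, with 99 UMIs over the Lin-kit+ libraries (1.30 to 1.66 CPM) and 9 UMIs over the reporter-positive libraries (1.20 and 1.85 CPM), and was not called. It is 1 of several near-identical A1 copies, among which reads may be lost or split, so its counts are uncertain.

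Both effectors were lower in the reporter-positive libraries. Bax was at 164, 152 and 149.8 CPM in Lin-kit+ and at 99.3 and 95.5 CPM in Fgd5+ and HSC-Fgd5+, a log2 fold change of -1.21 ± 0.08 (SE, edgeR adjusted p = 2.63e-05). Bak1 was at 77.7, 77.6 and 80.0 CPM against 47.3 and 45.23 CPM, with a log2 fold change of -1.30 ± 0.08 (SE, edgeR adjusted p = 1.87e-05). For these genes the spread between the Lin-kit+ libraries (SD 7.80 CPM for Bax and 1.37 CPM for Bak1) was far smaller than the difference between the groups. With library totals the log2 fold changes were -0.67 for Bax, -0.76 for Bak1 and 1.51 for Bcl2l1, all still called.

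The BH3-only genes moved in both directions. Bid, which links death receptors to the mitochondrion, was at 85.5, 86.7 and 91.9 CPM in Lin-kit+ and at 23.8 and 18.5 CPM in Fgd5+ and HSC-Fgd5+. Its log2 fold change of -2.57 ± 0.13 (SE, edgeR adjusted p = 7.26e-06) was the largest drop among the members with more than a few UMIs in both groups. Pmaip1, a partner of MCL1, was at 2.50, 2.89 and 2.97 CPM in Lin-kit+. It was seen as 1 UMI in Fgd5+ (0.240 CPM) and as 0 UMIs in HSC-Fgd5+, where the exact 95% interval reaches up to 1.70 CPM. Over summed libraries its level was 18.2-fold lower in reporter-positive cells (exact 95% interval 3.23 to 722, from 1 against 186 UMIs, counting error only), and it was called (edgeR adjusted p = 5.29e-04). Pmaip1 passed the filter only through the Lin-kit+ libraries, where it is higher, so this call is no independent support.

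Bbc3, a target of p53, went the other way, with 2.20, 2.57 and 1.996 CPM in Lin-kit+ and 9.12 and 6.92 CPM in the reporter-positive libraries. Its log2 fold change was 1.35 ± 0.25 (SE, edgeR adjusted p = 0.00261) and was no longer called without the Fgd5+ library (1.07, edgeR adjusted p = 0.0576). Bcl2l11 was at 2.90, 3.85 and 3.46 CPM in Lin-kit+ and at 3.60 and 4.62 CPM in the reporter-positive libraries, and it was not called (-0.33 ± 0.27, SE, edgeR adjusted p = 0.315). Genes induced by cell dissociation moved with this comparison. Of 10 listed, 7 were tested and 6 were called higher, where 32.7% of all genes were, and their summed level was 166 to 317 CPM in Lin-kit+ against 720 CPM in Fgd5+ and 797 CPM in HSC-Fgd5+. Of 6 other p53 targets tested, 3 were called higher and 1 lower. The part of either list in the values of Bbc3 was not tested.

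No member differed between the 2 reporter gates beyond counting error. With 1 library per gate no test between them is possible. Ratios of Fgd5+ over HSC-Fgd5+ were 1.01 (exact 95% interval 0.844 to 1.21) for Bcl2, 0.970 (0.747 to 1.27) for Mcl1, 0.895 (0.584 to 1.39) for Bcl2l1 and 1.04 (0.878 to 1.23) for Bax. The widest differences among the well-counted members were those of Bid, 1.29 (0.883 to 1.91), and Bbc3, 1.32 (0.708 to 2.58). For 10 of 10 members the interval held 1. Those of Pmaip1 (1 against 0 UMIs) and Bcl2a1b (5 against 4 UMIs, 0.140 to 3.27) could hardly have left it out at this depth. All the intervals cover counting error only and leave room for differences of the size they span. HSC-Fgd5+ was the shallowest library, its mitochondrial transcripts summed to 48027 CPM against 33403 CPM in Fgd5+, and 405 of its 519 cells passed a filter of 1000 UMIs and under 10% mitochondrial UMIs.

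To place the members in lineages, all cells were clustered on other genes, with the members and the other listed apoptosis genes left out. Clusters were named from marker lists. The 20 clusters gave 8 classes with at least 20 cells in every Lin-kit+ library, namely lymphoid-primed multipotent-like, monocyte-like, dendritic-like, early and late neutrophil-like, mast or basophil-like, megakaryocyte-like and erythroid-like cells. For brevity they are named below without the suffix. Of the reporter-positive cells, 720 Fgd5+ and 481 HSC-Fgd5+ cells fell into the HSC-like cluster, which held only 9, 15 and 12 Lin-kit+ cells and was too small to test, and 63 and 33 fell into the megakaryocyte cluster. That cluster was led by Pf4 and Itga2b but also by Fam64a, Cenpf and Ckap2l. At Leiden resolution 2 the clusters named megakaryocyte held 1 and 3 Fgd5+ cells and 0 HSC-Fgd5+ cells. A further cluster named HSC then held 61 Fgd5+ and 34 HSC-Fgd5+ cells, so this placement depends on the clustering. Each class was compared with the mean of the other 7 within the 3 Lin-kit+ libraries. Classes were cut from the same cells that are compared, so the p-values describe these classes as clustered and the 8 comparisons share their samples.

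Over the 8 classes, 7 members passed the filter (Bcl2l11, Bcl2a1b and Bbc3 did not, and Pmaip1 passed only through the dendritic class), giving 56 tests. Of these, 18 were called higher and 16 lower, 34 in all. Over all 72352 gene tests of these comparisons 24.7% were called higher and 20.6% lower. With library totals the genes called in the late neutrophil class shifted from 2973 higher and 2875 lower to 1033 and 6624, and in the erythroid, lymphoid-primed, megakaryocyte, monocyte and dendritic classes toward higher (3595 and 1701, 3675 and 980, 3072 and 536, 3349 and 1430, 2336 and 1338).

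Bcl2 and Mcl1 differed in the order of the classes mainly in the place of the dendritic class, and the sequences upstream of their starts are shown for that pair. Bcl2 lies on the minus strand of chromosome 1 (106538178 to 106714274, GRCm38) and Mcl1 on the plus strand of chromosome 3 (95658788 to 95663176). RefSeq windows of 250 bases before the start (GRCm38.p6, chr1:106714291-106714540, minus strand, and chr3:95658471-95658720, plus strand) follow, 5′ to 3′, with GC boxes (GGGCGG or CCGCCC) and, in Mcl1, an ETS core (CCGGAAG) in capitals.
Bcl2: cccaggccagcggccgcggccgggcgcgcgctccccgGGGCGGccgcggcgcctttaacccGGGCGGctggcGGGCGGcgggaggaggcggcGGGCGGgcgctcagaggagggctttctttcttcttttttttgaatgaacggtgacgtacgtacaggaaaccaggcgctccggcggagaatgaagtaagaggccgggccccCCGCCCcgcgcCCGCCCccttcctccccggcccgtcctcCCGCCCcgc
Mcl1: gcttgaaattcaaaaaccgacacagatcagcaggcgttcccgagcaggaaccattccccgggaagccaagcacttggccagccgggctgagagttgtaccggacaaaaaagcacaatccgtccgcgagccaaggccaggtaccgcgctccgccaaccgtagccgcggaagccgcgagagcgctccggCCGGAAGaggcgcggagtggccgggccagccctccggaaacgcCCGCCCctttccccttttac

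Both windows were rich in CpG, with 36 CpG in the Bcl2 window and 26 in the Mcl1 window against a median of 6 over 32851 RefSeq promoters. A GC box was found in 32.7% and the ETS core in 6.91% of those promoters on either strand. Neither window held a TATA box (TATAAA). The E-box CACGTG was absent too. No CCAAT box was found, nor the GATA motif AGATAA, on either strand. These matches describe letters only.

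The Bcl2 level ran from 159.6 ± 8.09 CPM (SD, n = 3) in the lymphoid-primed multipotent class to 4.02 ± 2.35 CPM in the late neutrophil class. In the lymphoid-primed class it was 169 CPM in Lin-kit+ a, 153 CPM in b and 157 CPM in c, above every other class. Monocyte (91.8 ± 6.84 CPM), megakaryocyte (79.0 ± 24.5 CPM) and mast or basophil cells (73.3 ± 14.1 CPM) followed, and in this order neighbours overlapped over libraries. Dendritic (42.5 ± 4.57 CPM), erythroid (28.3 ± 5.77 CPM), early neutrophil (8.70 ± 2.28 CPM) and late neutrophil cells came last, with no overlap between neighbours from the mast or basophil class down.

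Against the other classes, the log2 fold change of Bcl2 was 2.13 ± 0.09 (SE, edgeR adjusted p = 2.93e-32) in the lymphoid-primed class, 1.34 ± 0.08 in monocytes, 1.19 ± 0.16 in mast or basophil cells and 0.79 ± 0.16 in megakaryocyte cells, all called higher. It was -0.82 ± 0.14 in erythroid, -2.24 ± 0.15 in early neutrophil and -2.40 ± 0.18 in late neutrophil cells, all called lower. The erythroid call was lost without Lin-kit+ c (-0.45, edgeR adjusted p = 0.0712). In the late neutrophil class the difference widened to -3.77 without cells called doublets and to -3.31 with library totals.

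**Figure D2:**
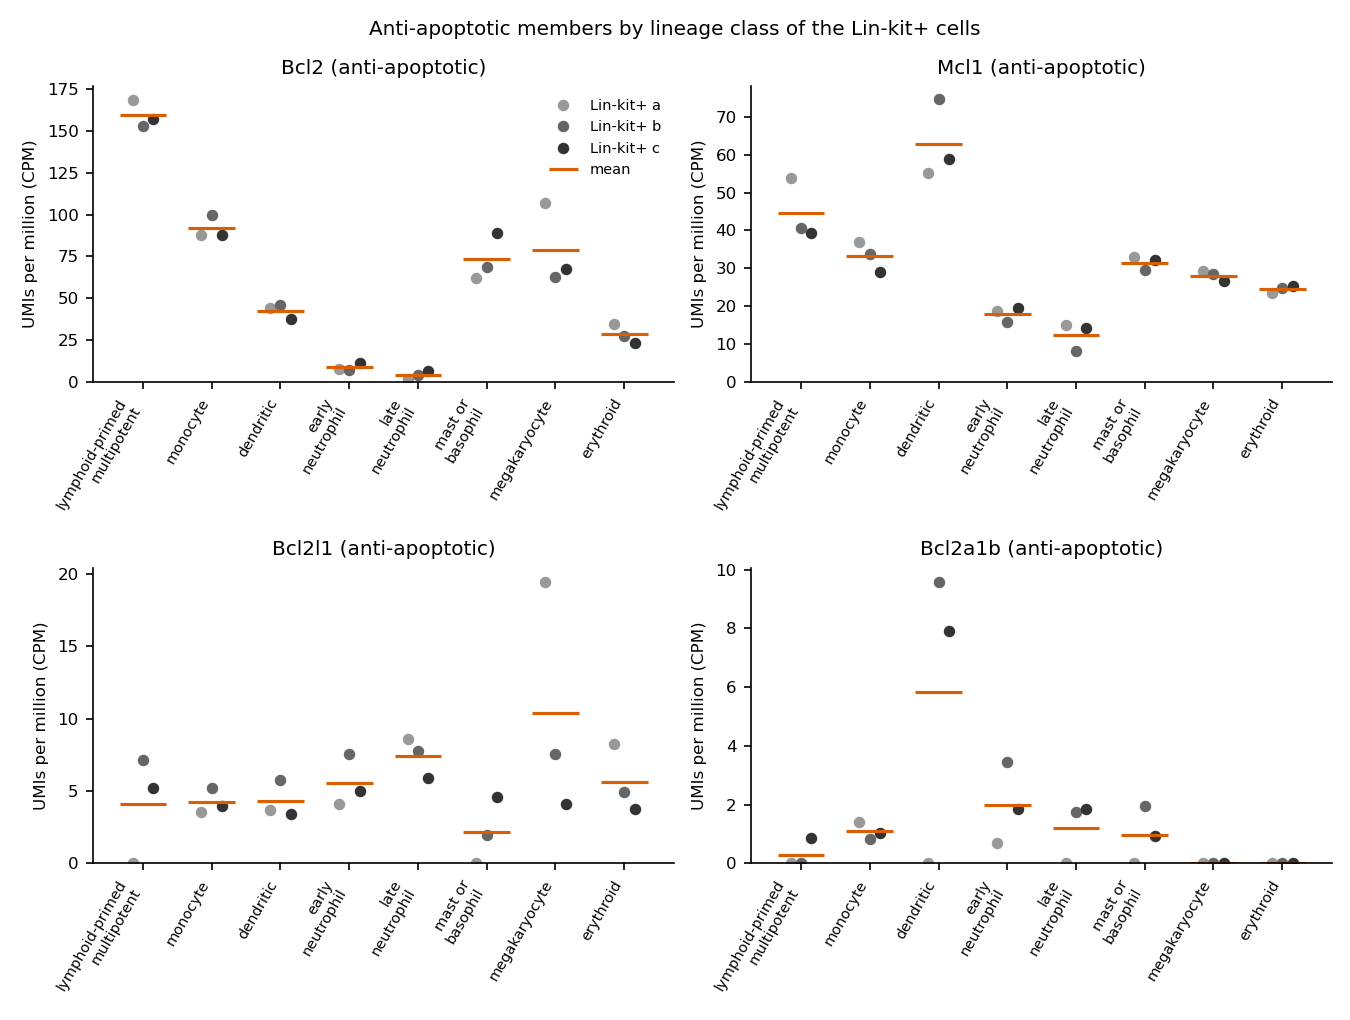
Level of the 4 anti-apoptotic members in 8 lineage classes of the Lin-kit+ cells, in CPM on linear axes that start at 0. Points are the 3 Lin-kit+ libraries and lines their mean. Bcl2 is highest in the lymphoid-primed multipotent class (159.6 CPM) and Mcl1 in the dendritic class (62.9 CPM), and the Bcl2l1 points of neighbouring classes overlap.

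Within classes Bcl2 was uneven, and the clusters that make them up with cells in all 3 libraries differed without overlap in 5 of the 6 classes made of several clusters. In the late neutrophil class 2 such clusters overlapped, and a small cluster present in 2 libraries stood above both. In the lymphoid-primed class a cluster led by Dntt, Lck and Flt3 had 251.7 ± 20.6 CPM and a cluster led by Cd34 and Cd27 had 102 ± 14.7 CPM (SD, n = 3). In the monocyte class the difference was larger. The cluster led by Cnn3 and Irf8 had 200.3 ± 3.63 CPM and the cluster led by Trem2 and Klf4 had 33.7 ± 2.63 CPM, a 5.95-fold range. At Leiden resolution 2, with 30 neighbours and when the members were kept for clustering, the cluster with the leading genes of the first was left without a name, and the log2 fold change of the monocyte class was 0.80, 0.44 and 0.39 there, still called.

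A similar drop was seen along the erythroid class, where a cluster led by Gata1, Aqp1 and Car1 had 47.1 ± 4.41 CPM of Bcl2. A cluster led by Rhag and Ermap had 3.72 ± 2.03 CPM, 12.6-fold less. In early neutrophil cells the cluster led by Ctsg and Ms4a3 had 13.2 ± 3.56 CPM and the one led by Vcam1 and Elane 1.88 ± 1.90 CPM. The 2 main late neutrophil clusters had 1.84 ± 1.09 and 3.06 ± 2.85 CPM, whereas 48 cells led by Itgam and Syne1 had 48.9 ± 8.02 CPM (n = 2). These 48 cells, with a median of 10161 UMIs against 4806 and 5307 in the other two clusters, held 23 of the 51 Bcl2 UMIs of the late neutrophil class. Of the clusters left without a name, that led by Cpa3 and Cd34 with Prg2 had 94.6 ± 15.4 CPM, that with Mpo 47.8 ± 5.16 CPM and that led by Vcam1 and Fcnb 1.63 ± 2.02 CPM. These differences between clusters are descriptions, with no test.

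**Figure D3:**
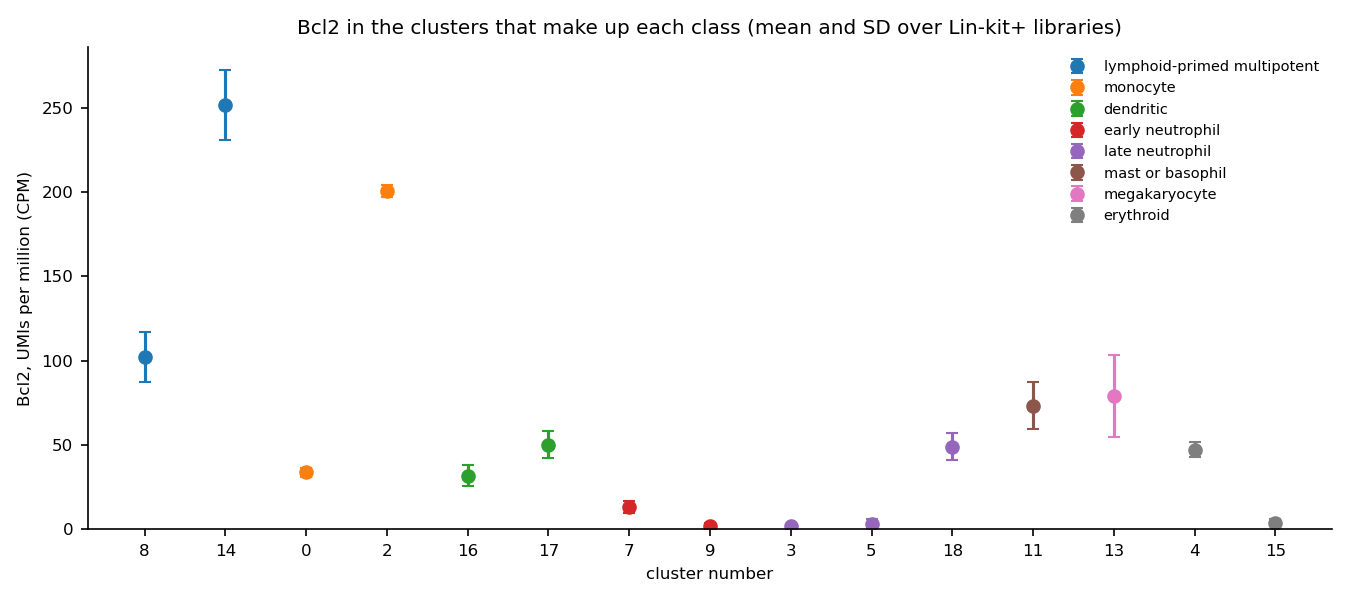
Bcl2 level in each cluster of the 8 classes, in CPM. Points are means and bars SDs over the Lin-kit+ libraries (3 libraries, 2 for cluster 18), and colours are classes. Clusters of 1 class stand apart, for example, in the monocyte class (33.7 against 200.3 CPM) and the erythroid class (47.1 against 3.72 CPM).

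The Mcl1 order differed from that of Bcl2 mainly in the dendritic class, which was at rank 5 for Bcl2 and rank 1 for Mcl1. The megakaryocyte and mast or basophil classes also changed places. Mcl1 was highest in the dendritic class, at 55.1, 74.8 and 58.8 CPM in Lin-kit+ a, b and c, and lymphoid-primed cells came next with 53.9, 40.7 and 39.2 CPM. No library of the lymphoid-primed class reached the lowest dendritic value. It was lowest in early (18.0 ± 1.94 CPM) and late neutrophil cells (12.4 ± 3.74 CPM, SD, n = 3). The log2 fold change was 1.20 ± 0.17 in dendritic cells (SE, edgeR adjusted p = 8.51e-09) and 0.43 ± 0.13 in lymphoid-primed cells (edgeR adjusted p = 0.00354), where the call was lost at Leiden resolution 2 (0.34, edgeR adjusted p = 0.0658). It was -0.69 ± 0.12 in early neutrophil, -0.43 ± 0.14 in late neutrophil and -0.41 ± 0.14 in erythroid cells, all called lower. The late neutrophil call was lost without Lin-kit+ b (-0.25, edgeR adjusted p = 0.175), and the difference was -0.77 without Lin-kit+ c and -1.34 with library totals. The erythroid call was lost without Lin-kit+ c (-0.39, edgeR adjusted p = 0.140) and with library totals (-0.21, edgeR adjusted p = 0.196). The top and bottom of the Mcl1 order were 5.08-fold apart, against 39.7-fold for Bcl2.

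Bcl2l1 was called in 1 class, the late neutrophil class, with a log2 fold change of 1.41 ± 0.26 (SE, edgeR adjusted p = 2.27e-06). Its CPM there was 8.63, 7.75 and 5.92 in Lin-kit+ a, b and c, and in the megakaryocyte class it was 19.5, 7.57 and 4.08. These overlapped, and every neighbouring pair in the Bcl2l1 order overlapped. In late neutrophil cells 12 granule and S100 marker genes summed to 368393 to 386244 CPM. With library totals the median gene of that class moved from -0.06 to -0.97, and Bcl2l1 was at 0.51 and was not called (edgeR adjusted p = 0.0580). The call therefore holds relative to most other genes and not relative to all UMIs of the class.

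Bcl2a1b reached 9.59 CPM in the dendritic class of Lin-kit+ b and 7.92 CPM in that of c, but 0 UMIs were counted in that of a. It averaged 1.99 ± 1.38 CPM in early neutrophil cells (SD, n = 3), and 0 UMIs were seen in the erythroid and megakaryocyte classes. Its copies were also highest in dendritic cells. Bcl2a1d was at 13.3 ± 5.94 CPM and Bcl2a1a at 6.89 ± 1.08 CPM in dendritic cells, and neither averaged more than 1.66 CPM in any other class. With 12 Bcl2a1b UMIs in 516 dendritic cells these are descriptions.

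Each anti-apoptotic gene can also be given as its share of the UMIs of all 4, a measure that does not depend on how a library is scaled. The share of Bcl2 was 76.5% ± 0.996 (SD, n = 3) in the lymphoid-primed class, 70.4% ± 2.34 in monocytes, 67.7% ± 2.47 in mast or basophil cells and 67.0% ± 3.05 in megakaryocyte cells. It was 48.1% ± 3.96 in erythroid, 37.1% ± 4.98 in dendritic, 25.2% ± 4.47 in early neutrophil and 15.9% ± 8.49 in late neutrophil cells. The late neutrophil share was 6.25% in Lin-kit+ a, 19.4% in b and 22.2% in c. Cells of the small late neutrophil cluster with high Bcl2 were found only in b and c. Mcl1 took 54.4% ± 0.735 in dendritic, 52.7% ± 6.82 in early neutrophil and 48.9% ± 11.2 in late neutrophil cells, against 21.3% ± 2.58 in the lymphoid-primed class. The share of Bcl2l1 was 30.3% ± 8.09 in late neutrophil and 16.3% ± 5.14 in early neutrophil cells, and 2.04% ± 1.83 in lymphoid-primed cells.

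Across the whole libraries the shares were closer together. Bcl2 made up 61.7% ± 1.11 in Lin-kit+ (SD, n = 3) and 59.1% and 60.8% in the 2 reporter-positive libraries. The share of Bcl2l1 was 5.63% to 7.26% in Lin-kit+ and 10.3% to 11.3% in the reporter-positive libraries, which did not overlap. These shares compare 1 gene between cells and do not rank the genes against each other.

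**Figure D4:**
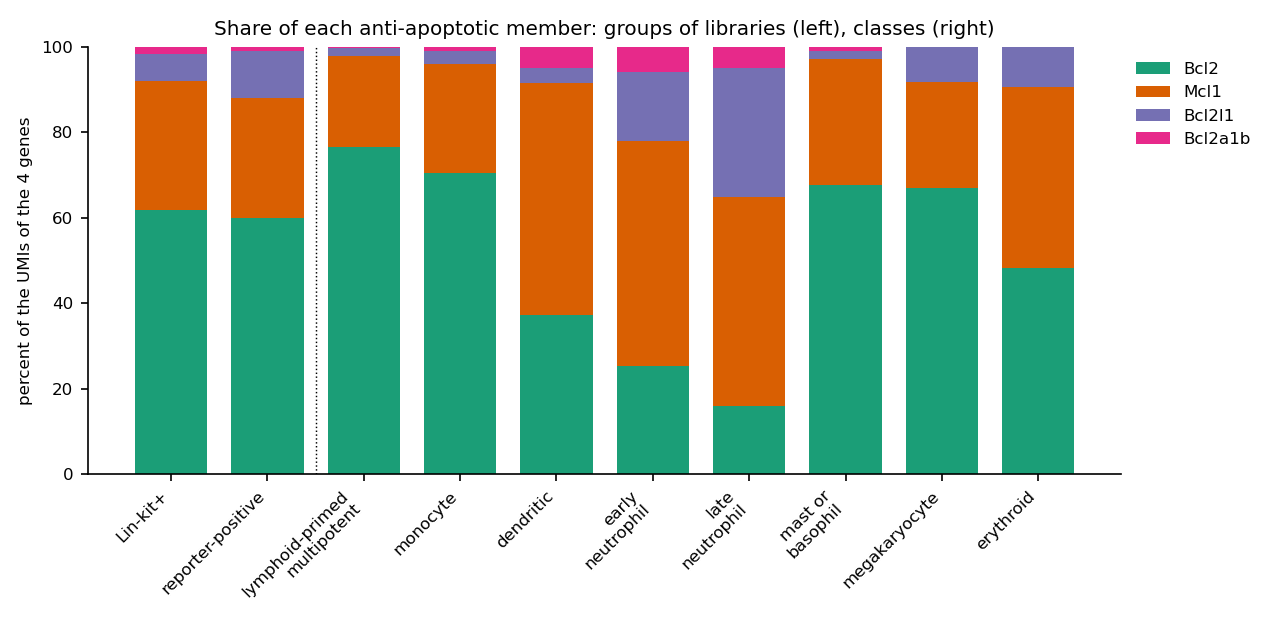
Share of each anti-apoptotic member among the UMIs of all 4, in percent, as the mean over libraries for the 2 groups of libraries and the 8 lineage classes. The Bcl2 part is 76.5% in lymphoid-primed multipotent cells and 15.9% in late neutrophil cells (6.25% to 22.2% over libraries), where the Bcl2l1 part is 30.3%.

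The effectors varied less than Bcl2. Bax ran from 201.7 ± 18.5 CPM (SD, n = 3) in dendritic and 199.6 ± 7.29 CPM in monocyte cells to 76.2 ± 9.19 CPM in late neutrophil cells. Its log2 fold change was 0.47 ± 0.10 (SE) in dendritic, 0.46 ± 0.05 in monocyte and 0.17 ± 0.06 in early neutrophil cells, all called higher. It was -0.73 ± 0.11 in megakaryocyte, -0.44 ± 0.08 in lymphoid-primed and -0.18 ± 0.07 in late neutrophil cells, all called lower. The calls in both neutrophil classes were lost under DESeq2, with no library term and without Lin-kit+ c (0.13, edgeR adjusted p = 0.219, in early and -0.09, edgeR adjusted p = 0.498, in late neutrophil cells), and the early one also under the 3 other clusterings. With library totals the late neutrophil value was -1.09, and the megakaryocyte value was -0.40 with 30 neighbours and -0.45 with the members kept for clustering.

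Bak1 was highest in the dendritic class at 102.9, 134 and 122 CPM in Lin-kit+ a, b and c, above every library of the other classes. It was lowest in the erythroid class at 48.8 ± 8.81 CPM (SD, n = 3). Its log2 fold change was 0.83 ± 0.12 (SE, edgeR adjusted p = 6.49e-09) in dendritic, 0.41 ± 0.07 in early neutrophil and 0.36 ± 0.06 in monocyte cells. It was -0.84 ± 0.14 in megakaryocyte, -0.65 ± 0.10 in erythroid, -0.55 ± 0.10 in lymphoid-primed and -0.37 ± 0.14 in mast or basophil cells, and the last of these was lost without Lin-kit+ b (-0.36, edgeR adjusted p = 0.159) or c (-0.24, edgeR adjusted p = 0.554), under DESeq2 (DESeq2 adjusted p = 0.0945), and with library totals, no filter or no library term (edgeR adjusted p = 0.0615 to 0.0753). In late neutrophil cells Bak1 was called higher by 0.81 ± 0.08 with TMM but turned to -0.10 with library totals.

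**Figure D5:**
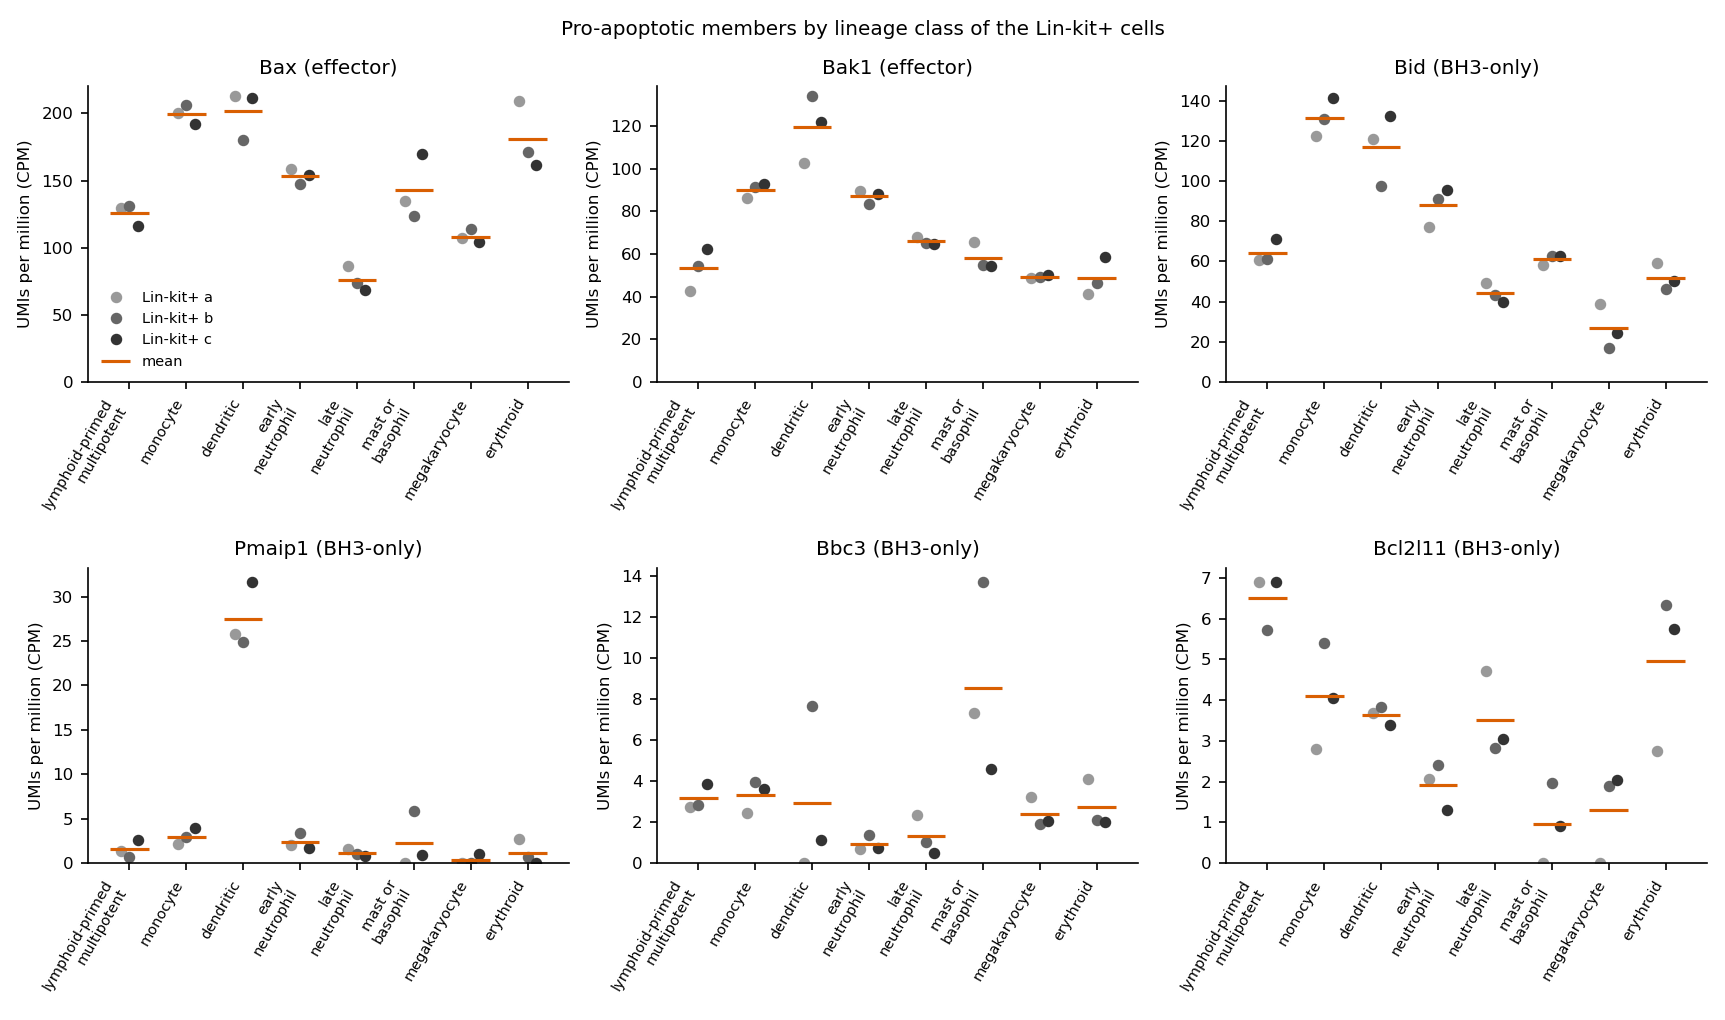
Level of 6 pro-apoptotic members in 8 lineage classes of the Lin-kit+ cells, in CPM on linear axes that start at 0. Points are the 3 Lin-kit+ libraries and lines their mean. Pmaip1 stands at 24.9 to 31.7 CPM in the dendritic class and at no more than 5.89 CPM in any library of another class.

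Bid was highest in the monocyte class at 122, 131 and 141 CPM and in the dendritic class at 121, 97.8 and 132 CPM in Lin-kit+ a, b and c. It was lowest in the megakaryocyte class, at 39.0, 17.0 and 24.5 CPM, below every other class. The log2 fold change was 1.10 ± 0.06 (SE, edgeR adjusted p = 1.85e-26) in monocyte, 0.89 ± 0.13 in dendritic and 0.59 ± 0.07 in early neutrophil cells, and it was -1.87 ± 0.18 in megakaryocyte and -0.61 ± 0.10 in erythroid cells. The low level in the megakaryocyte class was near that of the reporter-positive libraries (23.8 and 18.5 CPM), a comparison that was not tested.

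Pmaip1 was measured at 25.7, 24.9 and 31.7 CPM in the dendritic class of Lin-kit+ a, b and c. No library of another class exceeded 5.89 CPM, and the log2 fold change was 4.19 ± 0.38 (SE, edgeR adjusted p = 6.12e-16). These values rest on 48 UMIs in 43 of 516 dendritic cells. Pmaip1 passed the filter on low counts only through the dendritic class, where it is high. Its calls by class are therefore no independent support. Both dendritic clusters carried it, at 39.4 ± 7.74 CPM (SD, n = 3) in the cluster led by Cd74 and at 19.5 ± 8.93 CPM in that led by Ifi205 and Batf3. In the erythroid class, with 3 UMIs in all, it was called lower (edgeR adjusted p = 0.0154), and this was lost without Lin-kit+ b (edgeR adjusted p = 0.0615) or c (edgeR adjusted p = 0.987).

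Bbc3 and Bcl2l11 were too sparse for the tests by class. Bbc3 had its highest mean in the mast or basophil class at 7.30, 13.7 and 4.60 CPM, which is 14 UMIs in 503 cells. All 7 tested dissociation genes were called higher in that class, with a summed level of 534 to 1201 CPM, and their part in the Bbc3 value was not tested. Bcl2l11 averaged 6.51 ± 0.688 CPM (SD, n = 3) in lymphoid-primed cells and 0.960 ± 0.982 CPM in mast or basophil cells. Within the erythroid class it was at 9.14 ± 2.09 CPM in the cluster led by Rhag and Ermap and at 1.79 ± 1.56 CPM in the other, the reverse of the order of Bcl2.

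Taken class by class, the calls fell as follows among the 7 tested members. In the dendritic class 5 were higher (Mcl1, Bax, Bak1, Bid and Pmaip1) and 0 lower, where 21.9% and 19.0% of 9044 genes were, 40.9% in all, and the monocyte class had 4 higher (Bcl2, Bax, Bak1 and Bid) and 0 lower, against 28.5% and 21.9%, 50.4% in all. The erythroid class had 0 higher and 5 lower (Bcl2, Mcl1, Bak1, Bid and Pmaip1), against 28.5% and 25.6%, 54.2% in all. Pmaip1, which passed the filter only through the dendritic class, is counted in both the dendritic and the erythroid class. In the megakaryocyte class Bcl2 was higher and Bax, Bak1 and Bid lower, against 16.9% and 13%, 29.8% in all. In lymphoid-primed cells Bcl2 and Mcl1 were higher and both effectors lower, against 25.3% and 18.6%, 43.9% in all.

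Early neutrophil cells had 3 higher (Bax, Bak1 and Bid) and 2 lower (Bcl2 and Mcl1), against 27.3% and 24.4% of genes, 51.7% in all. Late neutrophil cells had 2 higher (Bcl2l1 and Bak1, of which Bak1 turned with library totals) and 3 lower (Bcl2, Mcl1 and Bax), against 32.9% and 31.8%, 64.7% in all. Mast or basophil cells had Bcl2 higher and Bak1 lower, against 16% and 10.3%, 26.3% in all.

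The comparison of reporter-positive libraries with HSC-like Lin-kit+ cells had almost no depth. The 36 HSC-like cells held 97489 UMIs, 580 genes could be tested, 0 (0.0%) were called by edgeR (41 at an unadjusted p under 0.05), and no member was among the 580. DESeq2 also called 0, of 14221 genes (507 at an unadjusted p under 0.05). Over these cells 1 Bcl2 UMI was counted, or 10.3 CPM (exact 95% interval 0.260 to 57.2, counting error only), 5 of Mcl1 (51.3 CPM, 16.7 to 119.7) and 2 of Bcl2l1 (20.5 CPM, 2.48 to 74.1). There were 18 of Bax (184.6 CPM, 109 to 292), 6 of Bak1 (61.5 CPM, 22.6 to 134) and 2 of Bid (20.5 CPM, 2.48 to 74.1). Bcl2l11, Bcl2a1b, Bbc3 and Pmaip1 were at 0 UMIs, for which the exact 95% interval reaches up to 37.8 CPM. Without Lin-kit+ c, which held the single Bcl2 UMI, Bcl2 was at 0 UMIs in the 24 HSC-like cells of a and b. It then passed the filter only through the reporter-positive libraries and was called higher there (edgeR adjusted p = 0.0459). Of 8020 genes tested in that setting 16 were called, 16 higher and 0 lower. With this filter and depth the call is no support for a difference in Bcl2.

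A comparison with the lymphoid-primed multipotent class, a stage with more cells, was added after the data had been seen. Of 8 members tested, 2 were higher and 4 lower in the reporter-positive libraries, where 19.2% and 17.4% of 9903 genes were, 36.6% in all. Bcl2 was lower by a log2 fold change of -1.08 ± 0.12 (SE, edgeR adjusted p = 1.25e-04), with 86.8 and 87.6 CPM against 153 to 169 CPM, and Bid by -1.81 ± 0.17 (edgeR adjusted p = 4.43e-05). Both kept their call under all 13 alternatives. Bax (-0.57), Bak1 (-0.46), Bcl2l1 (1.46) and Bbc3 (1.08, a gene that passed the filter only through the reporter-positive libraries) were called too. However, each of these was lost when at least 1 library was left out, Bax without HSC-Fgd5+ (edgeR adjusted p = 0.0511), Bcl2l1 without Lin-kit+ c or either reporter-positive library, and Bak1 and Bbc3 without any of several libraries.

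Beside the members, other genes of the same pathway were followed from lists. Of 12 other Bcl2 family genes 10 were in the table and 6 were tested between reporter-positive and Lin-kit+ libraries. Among the tested genes Bok passed the filter only through the reporter-positive libraries, where it is higher. Bok, a relative of BAX and BAK, was higher at 3.84 and 4.62 CPM against 0.600, 1.07 and 0.471 CPM (log2 fold change 2.05 ± 0.46, SE, edgeR adjusted p = 0.00649), a call lost without the Fgd5+ library (2.18, edgeR adjusted p = 0.0517). With TMM, Bad, a BH3-only gene, was lower by 1.07 ± 0.14 on the log2 scale, Bcl2l12 by 0.89 ± 0.11 and Bcl2l13 by 0.58 ± 0.20. With library totals the log2 fold changes were -0.53, -0.36 and -0.05, and Bcl2l13 was not called. Its CPM overlapped between the groups, at 11.8, 15.4 and 11.8 in Lin-kit+ a, b and c and at 11.8 and 13.8 in Fgd5+ and HSC-Fgd5+. The Bcl2l13 call was also lost without doublets (-0.54, edgeR adjusted p = 0.0511), without Lin-kit+ b (-0.43, edgeR adjusted p = 0.0868) and without either reporter-positive library. Bcl2l2 (0.54) and Bcl2l14 (-0.29) were not called, and Bcl2a1a, Bcl2a1d, Bik and Bmf did not pass the filter.

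Of 10 genes of the apoptosome and caspases, 1 was higher and 5 were lower, beside 32.7% and 30.4% of all genes tested, with a median log2 fold change of -0.40 against 0.07 over all genes. Cycs, which encodes cytochrome c, was at 668, 723 and 762 CPM in Lin-kit+ and at 156 and 135 CPM in the reporter-positive libraries, and fell by 2.83 ± 0.11 on the log2 scale (edgeR adjusted p = 3.16e-06). Among these and the other lists, the mitochondrial channel gene Vdac2 fell by 1.22 ± 0.07, the mitotic inhibitor of apoptosis Birc5 by 1.96 ± 0.09 and the p53 target Cdkn1a by 1.13 ± 0.17. The largest increases in the lists besides Bok were those of Phlda3 (2.54 ± 0.61) and Sesn2 (1.69 ± 0.29), both p53 targets, and of Dusp1 (2.49 ± 0.23) and Egr1 (2.44 ± 0.16), which are immediate early genes. Of these, Phlda3 passed the filter only through the reporter-positive libraries and was not called without the Fgd5+ library (2.54).

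Of 7 caspase inhibitors and antagonists 2 were higher and 2 lower, of 7 genes of death receptors and their adaptors 2 were higher and 2 lower, and of 6 regulators of the members 2 were higher and 2 lower. Over all genes tested 32.7% were higher and 30.4% lower, 63.1% in all.

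The genes whose pattern over the 8 classes was most like that of a member were sought among other genes of sufficient level (6200 for Mcl1). Pearson's r between class means of log2(CPM + 1) was used, as a description over 8 points that share their libraries. It compares the shape of a pattern and not the size of its changes. AK010878 ran only from 21.4 CPM in late neutrophil to 29.0 CPM in monocyte cells, against 4.02 to 159.6 CPM for Bcl2. For Bcl2 the most alike genes were AK010878 (0.974), Ap4m1 (0.949) and Hmgn3 (0.948), and for Mcl1 Ifnar1 (0.993), Trim26 (0.983) and H2-DMa (0.979). For Bcl2l1 they were Actn4 (0.940), Bckdk (0.917) and Abhd10 (0.914), and for Bcl2a1b, which is sparse, Atg3 (0.960), 1600012H06Rik (0.959) and Capza1 (0.957).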

How the data were processed

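Single-cell libraries (Chromium 3' v2) from 5 sorted samples were deposited as 1 table of counts, UMIs per gene and cell, made by the authors with Cell Ranger. The submitters' processing notes name Cell Ranger 1.3 and 2.1, Seurat 2.3.4 and mm10. The annotation is not given in the sources used here. No column of another series was found (0). Positions are from the GRCm38 annotation.

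Cells were not filtered in the main analysis. Depth was 2166655 to 36080242 UMIs per library, and Scrublet marked 154 cells (1.19%), which were kept. Clustering (scanpy 1.11.5, leidenalg 0.10.2, Python 3.11.15) used 2000 variable genes without the members and listed genes, 20 components, 15 neighbours and resolution 1. A cluster took a class name where at least 3 of its markers were 2-fold higher and detected in 5% of cells, thresholds set after the clusters had been seen. It stayed without a name where its 10 leading genes held more markers of another class, or where UMIs were few and no leading gene was a marker of its class. The cluster led by Vcam1 and Fcnb had the early neutrophil markers Elane, Prtn3, Mpo and Ms4a3 but stayed unnamed by the rule on leading genes. UMIs were summed per library, or per library and class, and tested with edgeR 4.0.16 (R 4.3.3, TMM, quasi-likelihood, Benjamini-Hochberg adjustment over all genes tested). Class tests had library as a term. DESeq2 1.42.0, library totals, no filter, filtered cells, no doublets, other clusterings, no library term and leaving out each library were alternatives.

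The members and gene lists were chosen with earlier results of these data known. Named besides the members were the other Bcl2 family genes, the 5 listed genes with the largest change each way and the 3 genes most alike. Counts were also simulated with a shared mean profile, a preset spread and 200 changed genes, up or down at random. There, 52.3% of 2-fold and 85% of 4-fold changes were recovered for reporter-positive against Lin-kit+ (11991 genes), with 2.83% of calls on unchanged genes. For the dendritic class (9044 genes) these were 53% and 84%, with 4.86%. The real comparisons called 63.1% and 40.9% of genes. The simulation did not test TMM scaling under so many changes, so its rates are not error rates of the real calls.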

Additional observations from a re-analysis of the deposited data

How the results depend on the processing

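No paired analysis was possible because the labels carry no replicate numbers shared between the groups. The comparison with the lymphoid-primed class, and filtered cells and no doublets for the 2 reporter gates, were chosen after seeing the data. Of the members' calls, 5 of 6 between reporter-positive and Lin-kit+ libraries (10 alternatives), 24 of 34 between classes (12) and 2 of 6 against the lymphoid-primed class (13) held under all alternatives run. Signs turned with library totals for Bcl2l11 (0.20) and Bcl2l14 (0.24) between reporter-positive and Lin-kit+ libraries and for Bak1 in late neutrophil cells (-0.10), and for Mcl1 with DESeq2 (-0.029) and without a filter (-0.0075). Members higher in reporter-positive libraries numbered 4 of 10 with library totals, where 6586 of 11991 genes were higher, and 1 to 2 with a library left out. Against HSC-like cells, 54 genes were called without a filter, 2 at Leiden resolution 2 and 1 to 26 with a library left out, when 0 to 1 members were higher. Against the lymphoid-primed class, DESeq2 called 2259 genes and leaving out a library gave 2304 to 3710. Members higher there numbered 0 with DESeq2, 1 without a filter, with filtered cells, at resolution 2 or with 30 neighbours, and 0 to 1 with a library left out, and members lower 2 to 4. The Bcl2 share moved to 35.4% and 35.6% in erythroid, 81.7% and 72.6% in lymphoid-primed and 60.8% and 54.8% in monocyte cells at resolution 2 and with 30 neighbours. With the members kept for clustering it was 55.6% in monocyte and 63.3% in megakaryocyte cells. The Bcl2 log2 fold change moved in erythroid cells to -1.81 at resolution 2 and -1.57 with 30 neighbours. In megakaryocyte cells it was 1.20 with 30 neighbours. With library totals Mcl1 was 0.65, Bax -0.22 and Bak1 -0.33 in lymphoid-primed cells, and Bax -0.44 and Bak1 -0.55 in megakaryocyte cells. The cause of these shifts was not tested. Depth limits Bcl2a1b, Bcl2l11, Bbc3 and Pmaip1, which had 0 to 73 UMIs per class.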
